A study of Mus musculus with 2 samples.

Results

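The cone opsins and other genes of the cone light response were followed in single cells of the mouse retina. The 10 genes were taken by symbol from the 27998 genes of both count tables, and all 10 were found: Opn1sw, Opn1mw, Arr3, Gnat2, Pde6h, Pde6c, Gngt2, Gnb3, Cnga3 and Cngb3. Peripheral retina, the area where the alpha-Cre driver is active, was dissected at postnatal day 8 and 1 library was made per genotype. Mice of the DKO group carried alpha-Cre, floxed Rb alleles (Rbf/f) and no functional p107 (P107-/-), and the labels call them tumor-prone. Mice of the DKO-Skp2+/- group carried the same 3 changes and had in addition lost 1 Skp2 allele, and the labels call them tumor-resistant. Both groups therefore lack Rb in Cre-expressing cells and p107 everywhere, neither is wild type, and how many animals went into each library is not given in the sources used here. Rb and p107 restrain entry into the cell cycle, and Skp2 is part of a ubiquitin ligase that targets cell cycle inhibitors such as p27. With 1 library per genotype no difference between the genotypes has a replicate check, and no test of it was possible. Every interval below is an exact 95% interval that covers counting error only, and the UMIs of 1 cell are not independent of each other. Where a count was 0, the limit given is the share that 3 counts would make up, in place of an interval.

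Cones respond to light through an opsin coupled to a cascade. A photon-activated opsin (Opn1sw, sensitive to short wavelengths, or Opn1mw, sensitive to middle wavelengths) activates the cone transducin, made of the alpha subunit Gnat2, the beta subunit Gnb3 and the gamma subunit Gngt2. Transducin relieves the inhibitory subunit Pde6h from the catalytic subunit Pde6c of the cone phosphodiesterase, cyclic GMP drops, and the channel of Cnga3 and Cngb3 closes. Arr3, cone arrestin, ends the opsin's activity. In the mouse, Opn1sw appears before Opn1mw during development, many mature cones make both opsins, and thyroid hormone acting through the receptor Thrb promotes Opn1mw and represses Opn1sw.

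RefSeq promoter windows of GRCm38.p6, the same assembly as mm10, matched 6 of the 10 members: Opn1sw, Opn1mw, Arr3, Gnat2, Pde6h and Cnga3. The 250 bases before the annotated start are shown for both opsins and for Arr3 and Pde6h, since these 4 genes had at least 74.5% of their UMIs in cone-like cells in each library. Cnga3 met that share too, from 8 and 14 UMIs in cone-like cells, and is not shown. Each is written 5′ to 3′ on the gene's own strand. Capitals mark the matches to 3 motifs searched on both strands: TAATCC (the core of sites of the photoreceptor factor Crx), AGGTCA (a core site of nuclear receptors such as Thrb and Rxrg) and TGCTGA (part of the site of Maf-type factors such as Nrl).
Opn1sw, chr6:29380514-29380763, minus strand: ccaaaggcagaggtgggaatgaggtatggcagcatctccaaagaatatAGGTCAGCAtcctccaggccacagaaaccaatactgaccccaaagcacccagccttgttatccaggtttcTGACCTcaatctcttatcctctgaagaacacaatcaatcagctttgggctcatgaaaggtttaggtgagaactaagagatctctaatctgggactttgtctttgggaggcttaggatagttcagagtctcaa
Opn1mw, chrX:74127216-74127465, plus strand: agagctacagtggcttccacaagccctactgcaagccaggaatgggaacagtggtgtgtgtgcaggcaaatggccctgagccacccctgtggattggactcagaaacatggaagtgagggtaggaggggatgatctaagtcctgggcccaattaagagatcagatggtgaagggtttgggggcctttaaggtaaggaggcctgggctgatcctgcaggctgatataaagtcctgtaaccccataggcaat
Arr3, chrX:100605247-100605496, plus strand: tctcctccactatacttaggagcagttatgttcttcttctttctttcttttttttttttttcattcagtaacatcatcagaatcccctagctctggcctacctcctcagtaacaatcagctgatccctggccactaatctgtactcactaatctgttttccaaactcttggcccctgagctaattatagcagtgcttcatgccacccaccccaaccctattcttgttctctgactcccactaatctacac
Pde6h, chr6:136954273-136954522, plus strand: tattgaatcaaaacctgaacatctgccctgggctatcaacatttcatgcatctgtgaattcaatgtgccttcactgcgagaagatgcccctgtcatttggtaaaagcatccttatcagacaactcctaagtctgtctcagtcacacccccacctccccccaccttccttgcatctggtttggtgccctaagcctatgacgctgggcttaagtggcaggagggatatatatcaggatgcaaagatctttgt
The Opn1sw window held 2 matches to AGGTCA, which begin 202 and 132 bases before the start, and 1 match to TGCTGA on the opposite strand, which begins 199 bases before it and overlaps the first AGGTCA. None of the 3 motifs was found in the windows of Opn1mw, Arr3 and Pde6h. Among all 32851 windows of this length, TAATCC was found in 6.25%, AGGTCA in 14% and TGCTGA in 16.1%. A match is a run of letters and not a measured binding site.

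The DKO library held 3621 barcodes with a median of 4939 UMIs, and the DKO-Skp2+/- library held 5196 with a median of 3874. After filters on genes, mitochondrial share and doublets, 3515 and 4978 cells were kept. Levels are given as CPM, the UMIs of a gene per 1000000 UMIs of the same cells. Skp2 was measured at 80.5 CPM (76.9 to 84.3) in DKO and 56.3 (53.3 to 59.4) in DKO-Skp2+/-, while 3′ counts of Rb1 and of Rbl1, which encodes p107, lie at the transcripts' ends and do not check the deletions. In cone-like cells alone Skp2 had 11 and 16 UMIs, 21.4 CPM (10.7 to 38.3) in DKO and 28.1 (16.1 to 45.7) in DKO-Skp2+/-, so the lower level over all cells was not seen there at this depth. The libraries shared 30 barcodes, 1 of them of a cone-like cell. Clustering left out the 10 cone genes and the cell cycle genes, and gave 31 clusters, of which 12 stayed without a name.

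One cluster of 93 cells was cone-like, with 34 cells in DKO and 59 in DKO-Skp2+/-. Its leading genes were Pde6h, Opn1sw, Arr3, Guca1a, Gnat2, Kcne2, Krt18, Aipl1, Pgc and Rcvrn. The name rests on cone genes that clustering had not used. Without the 10 members, its 10 leading genes held 1 cone marker, Kcne2, and 1 rod marker, Pde6g, and the cluster would have been named rod-like. Of 8 cone markers that are not members, 7 were more than 2-fold higher in it than in all other cells, with Thrb, which encodes a thyroid hormone receptor, 15.7-fold, Kcne2 34.2-fold and Ccdc136 10.8-fold higher, and Clca3a1 at 0. All 12 rod markers were more than 2-fold higher in it too. Levels of the members in this cluster against other cells are therefore a description, since they named it. The cone-like share of kept cells was 0.967% in DKO (0.671 to 1.35) and 1.19% in DKO-Skp2+/- (0.903 to 1.53).

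In cone-like cells Opn1sw, the short-wavelength opsin, was at 2141 CPM in DKO (2016 to 2271) and 2019 in DKO-Skp2+/- (1904 to 2139). A DKO cone-like cell held between 0 and 117 Opn1sw UMIs with a median of 22, and a DKO-Skp2+/- cell between 0 and 127 with a median of 12. Opn1sw was detected in 33 of 34 and 55 of 59 cone-like cells, so nearly every one of these cells carried it. By contrast, it was detected in 1 of 168 and 0 of 146 amacrine-like cells, and in 0 of 30 and 1 of 41 microglia-like cells, which are cells that should lack it. Median depths were 10651 and 6500 UMIs in cone-like cells, 5680 and 4911 in amacrine-like cells, and 9424 and 7519 in microglia-like cells. A count of 0 among the 146 amacrine-like cells allows a share of cells with a UMI of up to 2.05%, as 3 counts of 146.

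Opn1mw, the middle-wavelength opsin, was scarce in both libraries. It was at 25.3 CPM in DKO cone-like cells (13.5 to 43.3) and 82.6 in DKO-Skp2+/- (60.7 to 110), from 13 and 47 UMIs. It was detected in 7 of 34 cells (20.6%, 8.70 to 37.9) and 12 of 59 cells (20.3%, 11.0 to 32.8). Without thinning, the share of cells with a UMI was thus close in both libraries while the number of UMIs was not. These shares are not at equal depth, with medians of 10651 and 6500 UMIs per cell. Thinned to 1500 UMIs, Opn1mw was detected in 1 of 34 (2.94%, 0.0744 to 15.3) and 3 of 59 cells (5.08%, 1.06 to 14.1). Of all opsin UMIs in cone-like cells, Opn1mw made up 1.17% in DKO (0.624 to 1.99) and 3.93% in DKO-Skp2+/- (2.90 to 5.19). These counts of 3′ ends come from single transcripts and need no scaling by gene length.

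Nearly all cells with Opn1mw also held Opn1sw, as did nearly all cone-like cells. Both opsins were detected in 7 DKO and 11 DKO-Skp2+/- cone-like cells, Opn1sw alone in 26 and 44, Opn1mw alone in 0 and 1, and neither in 1 and 3. A count of 0 among 34 cells allows a share of cells with a UMI of up to 8.82%, as 3 counts of 34. In DKO, the 7 cells with Opn1mw held 3, 3, 2, 2, 1, 1 and 1 Opn1mw UMIs beside 42, 17, 56, 6, 12, 8 and 2 Opn1sw UMIs, so Opn1sw was the more abundant opsin in each of them. In DKO-Skp2+/-, the 6 cells with the most Opn1mw held 12, 8, 6, 6, 5 and 4 Opn1mw UMIs beside 21, 11, 15, 4, 4 and 21 Opn1sw UMIs. The other 6 held 1 Opn1mw UMI each, beside 39, 26, 11, 5, 3 and 0 Opn1sw UMIs. In 3 DKO-Skp2+/- cells and in 0 DKO cells, Opn1mw was at least as high as Opn1sw. The higher Opn1mw level of the DKO-Skp2+/- library thus came from 6 cells with 4 or more Opn1mw UMIs, a number that no DKO cell reached. With each cell thinned to 1500 UMIs, both opsins were detected in 1 of 34 cells (2.94%, 0.0744 to 15.3) and 2 of 59 cells (3.39%, 0.413 to 11.7), which is too few to compare.

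**Figure D1:**
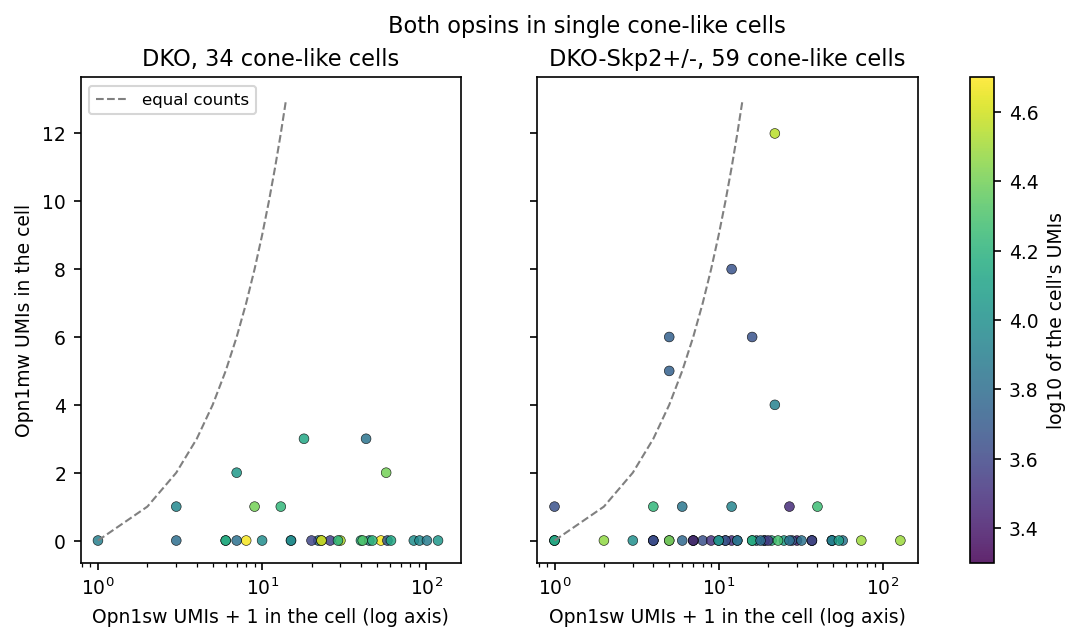
Opn1mw UMIs (vertical axis) against Opn1sw UMIs plus 1 (horizontal log axis) in each cone-like cell, coloured by the cell's total UMIs. The dashed line marks equal counts. The highest Opn1mw count was 3 among the 34 DKO cells and 12 among the 59 DKO-Skp2+/- cells.

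Among the transducin and phosphodiesterase subunits, Pde6h, Gngt2 and Gnb3 were detected in every cone-like cell of both libraries. Pde6h, the inhibitory subunit of the cone phosphodiesterase, was at 3653 CPM in DKO (3489 to 3822) and 5482 in DKO-Skp2+/- (5291 to 5678), a ratio of DKO-Skp2+/- to DKO of 1.501 (1.42 to 1.59). Its catalytic partner Pde6c was at 60.4 (41.0 to 85.7) and 109 (83.5 to 140), from 31 and 62 UMIs, a ratio of 1.80 (1.15 to 2.87). Both subunits of the phosphodiesterase were thus higher in CPM in DKO-Skp2+/-, while per cell the intervals of both ratios held 1.

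The 3 transducin genes were measured in the same cells. The alpha subunit Gnat2 was at 388 CPM in DKO (336 to 445) and 471 in DKO-Skp2+/- (416 to 531), a ratio of 1.21 (1.01 to 1.47). The beta subunit Gnb3 was at 953 (870 to 1041) and 1088 (1004 to 1177), a ratio of 1.14 (1.01 to 1.29). The gamma subunit Gngt2 was at 3590 (3428 to 3758) and 3544 (3391 to 3702), a ratio of 0.987 (0.926 to 1.05), so the interval of its ratio holds 1, while those of Gnat2 and Gnb3 lie just above it. In UMIs per cell all 3 were lower in DKO-Skp2+/-, with ratios of 0.776 (0.644 to 0.937) for Gnat2, 0.729 (0.647 to 0.823) for Gnb3 and 0.631 for Gngt2, beside 0.959 for Pde6h and 1.15 (0.737 to 1.84) for Pde6c. Whether the transducin genes differ from the phosphodiesterase genes in these ratios was not tested.

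Cone arrestin, Arr3, was at 471 CPM in DKO cone-like cells (414 to 535) and 615 in DKO-Skp2+/- (552 to 683), a ratio of 1.30 (1.10 to 1.54). It was detected in 34 of 34 and 54 of 59 cells. The channel subunit Cngb3 was at 125 (96.0 to 159) and 127 (99.0 to 159), and its partner Cnga3 at 15.6 (6.73 to 30.7) and 24.6 (13.4 to 41.3), from 8 and 14 UMIs. For both channel genes the intervals of the libraries overlap.

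In CPM and with 5 added to each value, 3 of the 10 members were more than 1.5-fold higher in DKO-Skp2+/- cone-like cells (Opn1mw, Pde6c and Pde6h) and 0 were lower. Of all 6825 genes with at least 20 UMIs in these cells, 6.42% were higher and 8.63% lower by this measure, 15.0% in either direction. The members' median log2 difference was 0.33, with 8 of 10 above 0, against -0.019 for all 6825 genes, of which 3270 (47.9%) were above 0. Pde6h stood at the limit, with a log2 difference of 0.59. It missed the limit at 0.56 with doublets kept, 0.497 with only cells of at least 3420 UMIs, 0.58 with 20 added and 0.50 after thinning, and the count of members higher by this measure ran from 2 to 8 over the other settings in CPM, the highest with cones taken by cell. These values rest on the scale. A DKO cone-like cell held 15098 UMIs on average and a DKO-Skp2+/- one 9647, and in UMIs per cell the median gene had a ratio of 0.65. On that scale, with 0.05 added, 3 members (Opn1sw, Gngt2 and Cngb3) were more than 1.5-fold lower in DKO-Skp2+/- and 1 (Opn1mw) higher, beside 53.9% and 0.777% of all genes. Per cell, Opn1sw had a ratio of 0.602 (0.554 to 0.655), Gngt2 0.631 (0.592 to 0.672), Arr3 0.833 (0.705 to 0.986) and Pde6h 0.959 (0.905 to 1.02), while Opn1mw had 2.08 (1.11 to 4.198). An alternative added once the data had been seen left out cells over 20000 UMIs and kept 26 and 53 cone-like cells. The members' median log2 difference in CPM was then -0.0066. Pde6h was at a log2 difference of 0.16 and Opn1sw at -0.62, and Opn1mw stayed at 1.06. The part of depth in these differences was not tested.

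**Figure D2:**
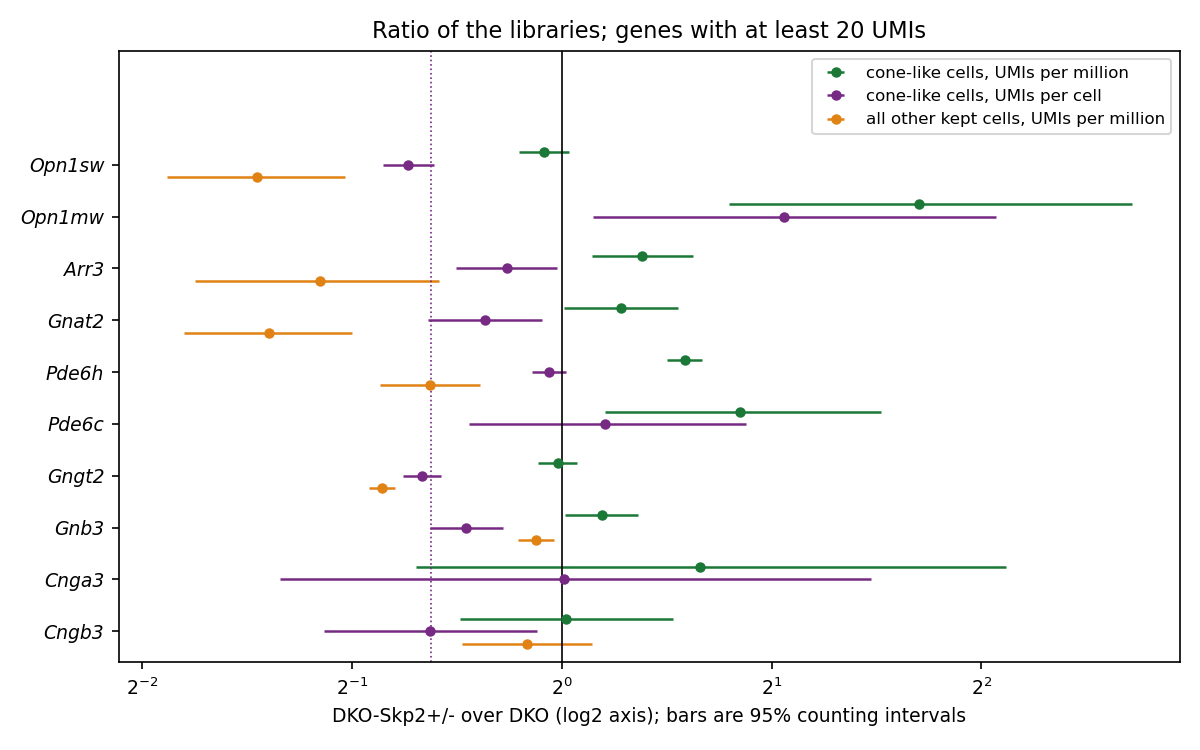
Ratio of DKO-Skp2+/- to DKO for each member (horizontal log2 axis) in cone-like cells in CPM (green) and per cell (purple), and in all other kept cells in CPM (orange), with 95% counting intervals. Genes with fewer than 20 UMIs in the compared cells are left out, and the dotted line is the median per-cell ratio of all genes, 0.65. Opn1mw lies right of 1 on both scales in cone-like cells, and Opn1sw, Arr3, Gnat2, Pde6h and Gngt2 lie left of 1 outside them.

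The cone-like cells also carried transcripts of the rod programme. Nr2e3, a rod factor that represses cone genes, was at 1934 CPM in DKO and 2064 in DKO-Skp2+/- cone-like cells, beside 2158 and 2281 in rod-like cells. Nrl, the factor that directs precursors to the rod fate, was at 1233 and 1189 in cone-like and 1241 and 1381 in rod-like cells. Both factors were thus near their rod-like level in cone-like cells. Thrb, by contrast, was 4.25-fold (3.04 to 5.98) and 3.67-fold (2.62 to 5.17) higher in cone-like than in rod-like cells.

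After thinning to 1500 UMIs, 28 of 34 DKO and 51 of 59 DKO-Skp2+/- cone-like cells held Nrl or Nr2e3, while 2 of 30 and 3 of 41 microglia-like cells did. The 6 and 8 cone-like cells without either held Opn1sw at 3304 (2850 to 3811) and 4931 (4132 to 5841). In the cells with Nrl or Nr2e3, Opn1sw was at 1995 (1868 to 2129) and 1873 (1759 to 1992). Counted per cell, the cells without these factors held 31.5 and 16.8 Opn1sw UMIs and those with them 32.5 and 19.9, beside median total UMIs of 9090 and 3323 without, and 11253 and 7672 with. The 6 DKO cells without these factors held 90, 60, 17, 14, 6 and 2 Opn1sw UMIs, so their mean rests largely on 2 cells. Opn1mw was detected in 5 of the 28 DKO and 12 of the 51 DKO-Skp2+/- cells with Nrl or Nr2e3, and in 2 of the 6 and 0 of the 8 without, which is too few to compare. Doublet scores had a median of 0.711 and 0.639 in cone-like and 0.611 and 0.333 in rod-like cells. Over all kept cells the medians were 0.456 and 0.398. Beforehand, 2 and 11 barcodes with at least 10 cone gene UMIs had been removed as doublets. The part of doublets in the mixed content was not tested.

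**Figure D3:**
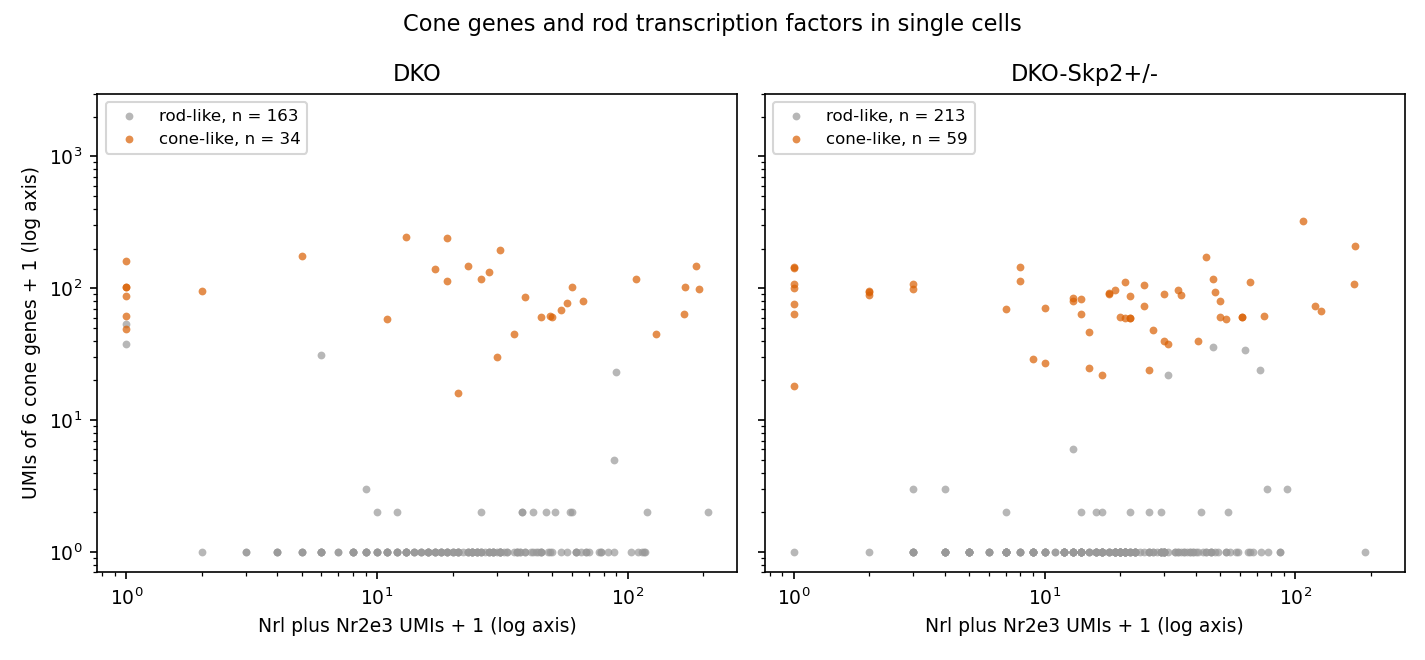
UMIs of 6 cone genes (Opn1sw, Arr3, Pde6h, Gnat2, Pde6c and Cnga3) plus 1 on a vertical log axis against Nrl plus Nr2e3 UMIs plus 1 on a horizontal log axis, for cone-like and rod-like cells of each library. Cone-like cells hold a median of 96 and 79 UMIs of the 6 genes across the whole range of rod factors, and nearly all rod-like cells hold close to 0.

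The members fell into genes mostly found in cone-like cells and genes shared with other classes. Cone-like cells held 86.1% of all Opn1sw UMIs in DKO (84.1 to 88.0) and 94.6% in DKO-Skp2+/- (93.1 to 95.8). For Pde6h these shares were 83.6% and 92.8%, for Arr3 74.5% and 90.2%, for Gnat2 51.0% and 78.4%, for Pde6c 75.6% and 92.5%, for Opn1mw 81.3% and 94.0%, and for Cnga3 88.9% and 87.5%. Gngt2 had 23.8% and 37.8% of its UMIs there, Gnb3 17.8% and 22.7%, and Cngb3 25.7% and 30%. All 3 of these genes were spread over several classes.

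Gnb3 was at 633 and 886 CPM in bipolar-like cells, as is known of ON bipolar cells, whose light response uses this subunit, and at 381 and 387 in rod-like cells. Cngb3 was at 46.8 and 86.2 in amacrine-like cells and 33.8 and 42.4 in rod-like cells. Gngt2 was at 1672 and 1357 in rod-like, 381 and 251 in bipolar-like and 294 and 163 in microglia-like cells. Gngt2 overlaps Abi3 on the opposite strand. Cnga3 was at 0 in rod-, bipolar- and amacrine-like cells of both libraries, and Pde6c at 1.41 and 0.785 in rod-like cells.

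Within rod-like cells, 6 members had at least 20 UMIs. Of these 6, 1 (Arr3) was more than 1.5-fold higher and 1 (Opn1sw) lower in DKO-Skp2+/-, beside 2.79% and 5.47% of 9415 genes, 8.26% in either direction. Arr3 had 6 UMIs in DKO and 18 in DKO-Skp2+/- rod-like cells, 10 of the 18 in 1 cell, and Opn1sw had 48 and 20, with 43 of the 48 in 3 cells. Gngt2 was at a ratio of 0.812 (0.763 to 0.864) and Gnb3 at 1.02 (0.897 to 1.15).

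**Figure D4:**
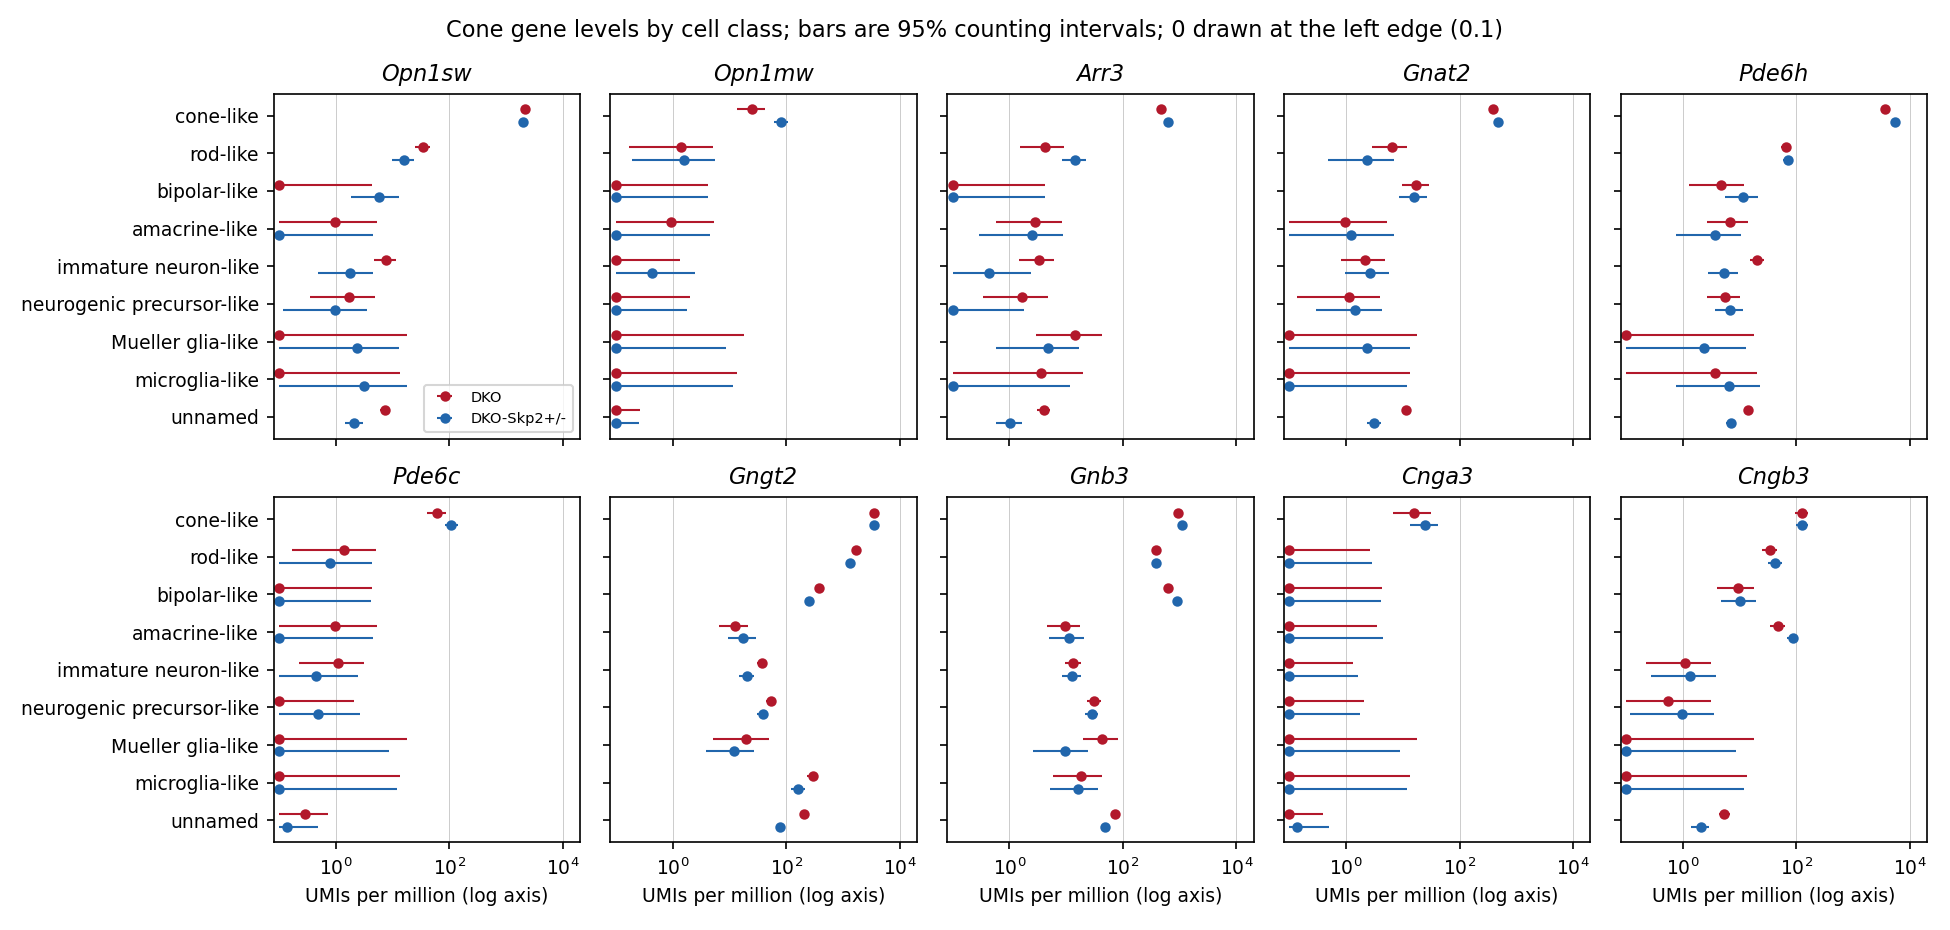
Level of each member in CPM (horizontal log axis) in 8 named cell classes and the cells without a name, for DKO (red) and DKO-Skp2+/- (blue), with 95% counting intervals; values of 0 are drawn at the left edge. Opn1sw is at 2141 and 2019 in cone-like cells and below 40 elsewhere, while Gnb3 reaches 633 and 886 in bipolar-like cells.

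Outside the cone-like cells, several members were lower in DKO-Skp2+/-. Gngt2 was at 258 CPM in the DKO and 143 in the DKO-Skp2+/- cells that were not cone-like, a ratio of 0.552 (0.529 to 0.576), and 0.642 (0.587 to 0.702) when each cell was thinned to 1500 UMIs. Of 19 clusters other than the cone-like one with at least 20 Gngt2 UMIs, 17 were lower in DKO-Skp2+/-, 14 had an interval below 1 and 0 had one above 1. After thinning, 9 intervals lay below 1 and 0 above. Of the 19 clusters, 9 have no name. The amacrine-like clusters had too few Gngt2 UMIs to be among them, and in amacrine-like cells together Gngt2 was at 12.4 CPM (6.62 to 21.3) and 17.2 (9.42 to 28.9), from 13 and 14 UMIs. In unnamed cluster 4, led by Fabp7, Rdh5 and Rgr, Gngt2 was at 563 and 307, in unnamed cluster 8, led by Foxn4 and Mdga1, at 432 and 240, and in rod-like cluster 10 at 1936 and 1634. The bipolar-like cluster 15, at 545 and 540, and the cone-like cluster had close values in both libraries. Gnb3, its beta partner, had a median ratio of 0.894 over 17 such clusters, with 3 intervals below 1 and 1 above. After thinning, 0 of the Gnb3 intervals lay below 1 and 0 above. Whether the Gngt2 difference of one cluster differs from that of another was not tested.

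**Figure D5:**
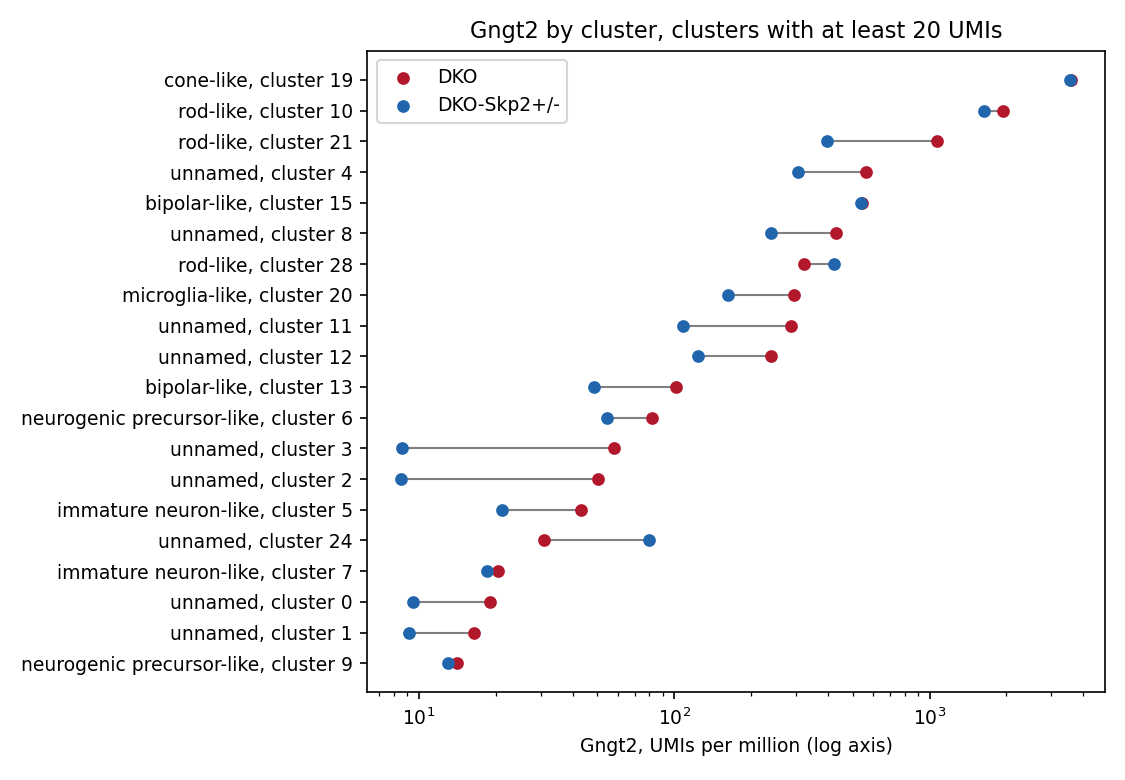
Gngt2 in CPM (horizontal log axis) in each cluster with at least 20 UMIs, ordered by the DKO value, with DKO in red and DKO-Skp2+/- in blue. The values of the cone-like cluster, 3590 and 3544, coincide, and 17 of the 19 other clusters have the DKO point to the right.

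Over all cells that were not cone-like, 3 of 7 members with at least 20 UMIs were more than 1.5-fold lower in DKO-Skp2+/- (Opn1sw, Gnat2 and Gngt2) and 0 were higher, where 0.21% of all 14739 genes were lower and 0.38% higher by this measure. Of the 7 members 0 had a log2 difference above 0, beside 8133 of the 14739 genes (55.2%). Opn1sw was at 7.75 and 2.84 CPM, Gnat2 at 8.37 and 3.18, Arr3 at 3.64 and 1.63 and Pde6h at 16.1 and 10.4. Once the cells rich in cone genes described below were left out, Opn1sw was at 1.29 and 2.11 CPM. Opn1sw is itself among the genes that chose those cells, so its change on leaving them out is a description. The other members were not followed in the remaining cells. Over all kept cells together, 0 of 10 members were past 1.5-fold in either direction, beside 0.575% of 14786 genes (0.385% higher and 0.189% lower), and the members' median log2 difference was 0.019. In bulk sums like these, fewer cells of a type and less RNA per cell cannot be told apart.

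The Opn1sw outside cone-like cells was concentrated in few DKO cells. In DKO, 14 of the 48 cells (29.2%, 17.0 to 44.1) with at least 5 UMIs over Opn1sw, Arr3, Pde6h, Gnat2, Pde6c and Cnga3 lay outside the cone-like cluster, and in DKO-Skp2+/- 6 of 65 (9.23%, 3.46 to 19.0). The 14 DKO cells held 148 of the 177 Opn1sw UMIs outside the cluster, and the 6 DKO-Skp2+/- cells 17 of 66. The other cells outside the cluster held 29 Opn1sw UMIs in 3467 DKO cells and 49 in 4913 DKO-Skp2+/- cells, at 1.29 and 2.11 CPM. Opn1sw is among the 6 genes that chose the 14 and 6 cells, so that they hold much of it is a description. Of the 14 DKO cells, 5 were in unnamed cluster 8, 4 in rod-like clusters, 2 in immature neuron-like cluster 5 and 3 in unnamed clusters 11 and 12. Of the 6 DKO-Skp2+/- cells, 5 were in rod-like cluster 10. One DKO cell of cluster 8 held 38 Opn1sw, 9 Arr3, 4 Gnat2 and 8 Pde6h UMIs beside 223 UMIs of 26 cell cycle genes and 0 of Nrl and Nr2e3. Thinned to 1500 UMIs, 11 of the 14 DKO and 1 of the 6 DKO-Skp2+/- cells held at least 3 UMIs of these cell cycle genes. So did 1987 of all 3515 kept DKO cells (56.5%) and 2164 of all 4978 kept DKO-Skp2+/- cells (43.5%). The median depth of the 14 and 6 cells was 21593 and 11309 UMIs, against 4849 in all DKO cells outside the cluster. Not in these counts are 2 DKO and 11 DKO-Skp2+/- barcodes with at least 10 UMIs of the 6 genes, removed beforehand as doublets. The part of doublets was not tested here either.

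Cell cycle transcripts were lower in the DKO-Skp2+/- cone-like cells. By the same rule, 3 of 34 DKO cone-like cells (8.82%, 1.86 to 23.7) and 0 of 59 DKO-Skp2+/- ones (up to 5.08% as 3 counts of 59) held at least 3 cell cycle UMIs, beside 37 of 163 and 17 of 213 rod-like cells. Without thinning these were 24 of 34 and 17 of 59 cone-like cells. The 26 genes summed to 662 CPM in DKO cone-like cells (594 to 737) and 220 in DKO-Skp2+/- (183 to 262). In all kept cells this sum was 5620 CPM in DKO and 4702 in DKO-Skp2+/-. It was 1652 and 585 in rod-like, 713 and 303 in bipolar-like, 365 and 260 in amacrine-like and 171 and 360 in microglia-like cells. The DKO-Skp2+/- cone-like sum was thus below that of amacrine-like and microglia-like cells of the same library. Of 12 list members with at least 20 UMIs, 10 were more than 1.5-fold lower and 0 higher, beside 8.63% and 6.42% of all 6825 genes. Their median log2 difference was -1.004. Top2a, which untangles DNA before division, had 67 and 10 UMIs, a ratio of 0.135 (0.0617 to 0.263). Cdca3, Cenpf and Hist1h2ap had log2 differences of -1.69, -1.74 and -2.10. Core proliferation genes were also lower in rod-like cells, where 25 of 25 were more than 1.5-fold lower, beside 5.47% of 9415 genes. The 3 DKO cells held 17, 40 and 60 Opn1sw UMIs, 54, 28 and 32 Pde6h UMIs, and 0, 23 and 0 Nrl UMIs. They also held 57, 35 and 43 of the 340 cell cycle UMIs of DKO cone-like cells before thinning. Of the 67 Top2a UMIs they held 10, 11 and 9, so these sums lean on few cells. With cone genes kept in the clustering, which added 9 DKO cells and 1 DKO-Skp2+/- cell, the shares were 23.3% and 0%. With the barcodes removed as doublets kept, 36 and 67 cells were cone-like and the shares were 11.1% and 7.46%, so the count of 0 in DKO-Skp2+/- rests on the removal of doublets.

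Other genes of the light response were counted in the same way in cone-like cells. Of 11 measured genes that rods and cones share, 1 was more than 1.5-fold higher and 1 lower, beside 6.42% and 8.63% of all 6825 genes, with a median log2 difference of 0.099. Aipl1, a chaperone of the phosphodiesterase, was at 329 and 501 CPM, a log2 difference of 0.60, and Rgs9, which speeds the shut-off of transducin, at 160 and 104, one of -0.60. The same shares of all genes stand beside the counts of the 3 lists that follow, each of which had at most 1 gene past the limit in a direction. Rgs9bp, the anchor of Rgs9, was at 123 and 184 (0.57), and Pde6d at 335 and 423 (0.33). Of 11 rod phototransduction genes, 0 were higher and 1, Pde6a, a catalytic subunit of the rod phosphodiesterase, was lower at 249 and 151 (-0.70). Slc24a1, Gngt1 and Pde6g had log2 differences of 0.27, 0.23 and 0.21, and the list's median was -0.055. Of 9 measured genes of outer segment structure, 0 were past 1.5-fold, with Prom1, Mpp4, Cdhr1 and Rp1l1 at -0.34, -0.30, -0.28 and 0.25 and a median of -0.052. Of 5 measured visual cycle genes, Dhrs3 was higher at 33.1 and 52.7 CPM (0.60), Abca4, Rdh10 and Rdh12 had -0.40, 0.10 and 0.033, and the median was 0.033.

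Among 14 measured regulators of cone type and opsin choice, 3 were more than 1.5-fold lower in DKO-Skp2+/- cone-like cells and 0 higher, beside 8.63% and 6.42% of all 6825 genes, and the median log2 difference was -0.076. Vax2, a marker of ventral retina, had 27 and 15 UMIs, a ratio of 0.501 (0.248 to 0.976). Rxra and Nr2f2, both nuclear receptors, had ratios of 0.570 (0.252 to 1.24) and 0.609 (0.359 to 1.02), and Sall3 0.743 (0.339 to 1.60). Thrb had 92 and 95 UMIs, a ratio of 0.931 (0.692 to 1.25), and its partner Rxrg 26 and 34, a ratio of 1.18 (0.687 to 2.05). Crx, the general photoreceptor factor, had a ratio of 1.03 (0.913 to 1.17), Nrl 0.965 (0.864 to 1.08) and Nr2e3 1.07 (0.980 to 1.16). Where in the peripheral retina each cell lay is not given in the sources used here, and the part of position in the opsin values was not tested.

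Across 51 pairs of cluster and library, the members' levels followed each other and those of other photoreceptor genes. As a description over log2 values that share libraries and depth, Opn1sw correlated at 0.93 with Pde6h, 0.92 with Pde6c, 0.87 with Arr3, 0.65 with Gngt2 and 0.54 with Gnb3. Among 11043 genes that are not members, those closest to Opn1sw were Vtn (0.80), Guca1a (0.80), Rp1l1 (0.79) and Grk1 (0.78), to Opn1mw Guca1a (0.81), Rp1l1 (0.77), Vtn (0.77), Grk1 (0.75) and Cabp4 (0.74), and to Arr3 Guca1a (0.80), Vtn (0.78), Rp1l1 (0.77), Aipl1 (0.76) and Grk1 (0.76). Without the cone-like cluster, Opn1sw correlated at 0.73 with Pde6h, 0.64 with Pde6c, 0.37 with Arr3, 0.53 with Gngt2 and 0.39 with Gnb3. Its correlation with Vtn was then 0.55, with Rp1l1 0.501, with Grk1 0.496 and with Guca1a 0.28, and that of Opn1mw with Rp1l1 was 0.62. Each of these values was thus lower without that cluster, by amounts that differed from gene to gene. Within cone-like cells, rank correlations of counts after thinning were 0.60 in 34 DKO cells and 0.43 in 59 DKO-Skp2+/- cells for Opn1sw with Pde6h, 0.59 and 0.49 for Opn1sw with Gnat2, and 0.25 and 0.036 for Opn1sw with Arr3.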

How the data were processed

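Droplet-based 3′ libraries of dissociated peripheral retina were made with the Single Cell 3′ Reagent Kit v2, per the labels' protocols. The authors deposited UMI counts per gene and barcode made with Cell Ranger 2.2.0 against mm10, per the submitters' processing notes. Starting from these deposited counts, barcodes with fewer than 500 genes or over 20% mitochondrial UMIs were removed (1 and 2), and then the highest scores of a simulated-doublet neighbour search at 0.8% per 1000 barcodes of a library (105 and 216). Clusters came from 2000 variable genes, 30 principal components, 15 neighbours and the Leiden method at resolution 1 (leidenalg 0.10.2, igraph 0.11.9, scikit-learn 1.9.0, numpy 2.4.6, scipy 1.17.1, Python 3.11.15). A cluster was named "-like" from marker lists: at least 1 marker among its 10 leading genes, 3 markers over 2-fold and a mean log2 fold of at least 1, thresholds set after the data were seen.

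Counts were summed per library and class and given as CPM (per 1000000 UMIs). Log2 differences had 5 added to each value and 1.5-fold served as the limit for counting genes with at least 20 UMIs. Intervals are exact Poisson or Clopper-Pearson ones. Shares at equal depth used each cell thinned to 1500 UMIs, below which no kept cell fell. The ratios and their intervals were tested on simulated gene sums, and thinning was checked on real cells. Doublet removal, clustering and naming were not tested on simulated data. The members, gene lists and markers were chosen with earlier results of these data known. Named genes were all members and, per list, up to 4 with the largest absolute log2 difference among those with at least 20 UMIs, plus Thrb, Rxrg, Crx, Nrl and Nr2e3; for likeness, the 5 non-members with the highest correlation among genes with at least 100 UMIs in each library, over clusters with at least 20 cells in a library, leaving out genes without a proper name. The plots were made with matplotlib 3.10.9. 1 gene of the rod lists is not reported here by name. Single cells described outside the cone-like cluster were chosen after their values were seen.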

Additional observations from a re-analysis of the deposited data

How the results depend on the processing

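The members' median log2 difference in cone-like cells, 0.33, was set beside a range from the median lower to the median upper limit of the members' ratios. Those limits have nothing added to the values, so the range is not an exact interval of the median. In 10 of 16 alternatives the median stayed within it. It was 0.60 with cells thinned to 1500 UMIs, 0.91 with cones taken by cell from at least 5 UMIs of 7 cone genes, and, in alternatives chosen after seeing the data, 0.61 with 5 genes, 1.02 in the cells without Nrl or Nr2e3, -0.0066 without cells over 20000 UMIs and -0.31 in UMIs per cell. The 7-gene rule took 413 and 283 cells of many clusters. Among its genes are Gngt2 and Cngb3, which had most of their UMIs outside cone-like cells. The 5-gene rule, which leaves both out, took 48 and 64 cells. With the 7-gene rule the cone share was 11.8% in DKO and 5.69% in DKO-Skp2+/-, and the share with cell cycle transcripts 53.0% and 23.3%. With 5 genes the DKO values were 1.37% and 29.2%. With only cells of at least 3420 UMIs the DKO-Skp2+/- cone share was 1.69%. In DKO-Skp2+/-, keeping doublets gave 7.46% of cone-like cells with cell cycle transcripts and 91.5% of Opn1sw UMIs in cone-like cells. Both opsins were found in 0% and 0% of cone-like cells when 2 UMIs were asked for, and in 20.6% and 18.6% without thinning. Cone-like cells with cell cycle transcripts were 0% in DKO at 5 UMIs, and 70.6% and 28.8% without thinning. The cause of these shifts was not tested, except that thinning and higher minimums count fewer UMIs by construction. Opn1mw, at 1.53, was -3.91 in the cells without Nrl or Nr2e3, where it had 4 UMIs in 6 DKO and 0 UMIs in 8 DKO-Skp2+/- cells, and Pde6h, at 0.59, was -0.060 in UMIs per cell. The cone-like cluster held the same number of cells at resolutions 0.5 and 2.0. Cell cycle and opsin counts rest on few cells, and Cnga3, Opn1mw and Pde6c on few UMIs. No paired analysis was possible because each genotype has 1 library.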
